A study of Mus musculus with 26 samples.

Results

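The oocytes of the fetal mouse ovary at embryonic day E18.5, shortly before birth, were represented by 95 single cells. They were the cells of that stage that had passed the sort gate for both germ cell reporters (called BVSC) and had less than 100 CPM (counts scaled to a sum of 1000000 per cell) of Anxa5, an annexin gene that 33 of the 44 cells of the stage's other gate, called Negative, held at 100 CPM or more. Of 97 reporter-positive cells, 2 were left out by this limit, at 458 and 1987 CPM of Anxa5. The highest kept cells had 52.7 and 37.8 CPM, and 38 kept cells had no Anxa5 molecule. The 95 cells belonged to 141 cells of the stage and 1881 cells of the series. Library 6 held 70 of them and library 26 held 25.

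Female germ cells enter meiosis in the fetal ovary, pass through the prophase of the first meiotic division inside germ cell cysts, and arrest near birth at its diplotene stage. While the synaptonemal complex that joins homologous chromosomes is taken down, the cysts break up, single oocytes become enclosed by pregranulosa cells, and primordial follicles form. A set of transcription factors that includes SOHLH1, LHX8, NOBOX and FIGLA switches on the genes of the oocyte itself, such as those for the zona pellucida, the coat around the egg, and for proteins stored for the early embryo.

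The mice were BVSC transgenic mice, labelled wild type (WT) in every cell name, which carry the reporters Blimp1-mVenus and Stella-ECFP, named after the products of Prdm1 and Dppa3. All groups used here carried both reporters and differed by stage, counted from the vaginal plug as E0.5. The oocytes were compared with reporter-positive cells chosen by the same rule at E17.5 (137 of 142 cells, libraries 24 and 25) and E16.5 (155 of 188 cells, libraries 20 and 22). Gonads of several embryos were combined for each stage, dissociated with trypsin and sorted, and cells were picked by hand for 3'-enriched single-cell sequencing with unique molecular identifiers (UMIs). Counts were summed per library and stage into pools, so each stage had 2 pools, and CPM refer to the 16344 genes of the count table read here. The cell names also carry a replicate code, but nothing in the labels ties the libraries of a stage to separate litters. The p-values therefore rest on how far libraries differed, and that difference may be only technical.

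The label was checked first against Lhx8, Nobox, Sohlh1 and Nlrp5, its markers, which were chosen with these data in view. Lhx8 was at 624 CPM in the oocytes of library 6 and 847 CPM in those of library 26. In the somatic cells of the same libraries, here the 33 cells of the Negative gate with at least 100 CPM of Anxa5, it was at 55.7 and 85.4 CPM. In cells drawn down at random to 50000 UMIs, mean Nobox was 20.7 UMIs in oocytes and 1 in somatic cells of library 6. In library 26 these means were 38.5 and 6.44. Sohlh1 had 33.2 and 5 UMIs in library 6, and 43.6 and 8.33 in library 26. Nlrp5 was above the highest somatic cell in only 24 of 70 and 10 of 25 oocytes. Of the remaining oocytes, 35 of 46 in library 6 and 15 of 15 in library 26 had a Nlrp5 molecule, within the somatic range. Germ cell transcripts were also higher in the oocytes. Mael, a piRNA pathway gene of germ cells, had a lowest oocyte at 469 CPM in library 6 and a highest somatic cell at 365 CPM. The 2 cells left out had 91.5 and 116 CPM of Lhx8 and 70.4 and 127 CPM of Nobox, within the range of the somatic cells. The other 11 cells of the Negative gate were under the Anxa5 limit, 6 of them with no Anxa5 molecule, and entered neither group. Their median was 1463 CPM of Kitl and 589 CPM of Wt1, genes of pregranulosa cells, and their highest Lhx8 was 145 CPM.

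Oocyte transcripts were also read in the somatic cells, and some transcripts were shared by all cells of a library. The mean of the somatic cells was 9.5% of the oocyte mean for Lhx8 in library 6 and 10.6% in library 26, and 21.9% and 38% for Dppa3. The embryonic globin Hbb-bh1 was at 655 to 1644 CPM in all 25 oocytes of library 26 and at 0 in all 70 of library 6. Cpa3, a mast cell protease gene, was at 154 to 968 CPM in all 68 E17.5 cells of library 24 and at 0 in all 69 of library 25. Values of single cells are therefore read below against the somatic cells of their own library.

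The median oocyte had 134299 UMIs in library 6 and 101506 in library 26, against 111211 and 110797 at E17.5 (exact permutation test, two-sided, p = 1; with 2 pools against 2 the smallest possible p is 0.333). Median genes detected were 4960.5 and 4173 at E18.5 and 4773 and 4528 at E17.5 (exact permutation test, p = 1). The E18.5 libraries stood further apart than those of earlier stages: 30.7% of 4782 expressed genes differed more than 2-fold between libraries 6 and 26, against 12% at E17.5 and 5.27% at E16.5. Of these genes 1284 were higher in library 6 and 184 in library 26, and the title prefix of library 6 differed from that of the other 5 libraries compared. Over the 4782 genes the median log2 difference, library 6 minus library 26, was 0.268. Between the libraries of E17.5 and E16.5 it was 0.003 and 0.064. The pool of library 26 held 2342743 UMIs and that of library 6 held 10400860. The parts of scaling and counting noise in these counts were not tested. Both E18.5 libraries used 23 of the same cell numbers, but no 2 cells had identical counts.

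Against E17.5, Lhx8, Nobox, Nlrp5, Zp2 and Kit were higher in both E18.5 libraries and the recombination genes M1ap, Spo11 and Hfm1 were lower, but no gene passed the test. Of 9997 genes tested with edgeR's quasi-likelihood test, 0 (0%) had a Benjamini-Hochberg adjusted p under 0.05. At an unadjusted p under 0.05 there were 1030 (10.3%; 474 higher, 556 lower), and DESeq2 called 161 of 7661 (2.1%). Both E18.5 pools were above both E17.5 pools for 1330 genes (13.3%) and below both for 2138 (21.4%), which is the background for the counts of members below. The count of calls was 102 without library 6, 47 without library 24, 0 without library 25 and 1 without library 26. A gene passes the filter on low counts if enough pools hold it, so a member seen at E18.5 alone is tested because it is high there.

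Against E16.5, 76 genes (0.76%) passed, 37 of them higher (0.37%) and 39 lower (0.39%). Among those that rose were Nlrp5, Oas1e and the receptor gene Kit, and among those that fell was the meiotic gene M1ap. Of these, Oas1e was tested only because of its level at E18.5. DESeq2 called 480 of 7853 (6.11%). Pools did not overlap for 1883 higher genes (18.8%) and 2263 lower genes (22.6%). This comparison shares its E18.5 pools with the one against E17.5. With upper-quartile scaling, which moved the median log2 fold change of all genes to -0.16, 27 genes rose and 56 fell. The number of calls depended on the libraries: it was 392 without library 6, 5 without library 20, 41 without library 22 and 30 without library 26, where the stage with 1 pool left borrowed its spread from the rest.

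All 37 genes that rose since E16.5 were above both E17.5 pools, and 38 of the 39 that fell were below both. Over all genes tested the shares were 13.3% and 21.4%. The same E18.5 pools had served to choose these genes, so these counts are no independent result. The E17.5 libraries stood at different points of the change since E16.5. For 31 of the 76 genes library 24 lay nearer on the log2 scale to E18.5 than to E16.5, and for 3 genes library 25 did.

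Of the transcription factors of the oocyte, Lhx8, Nobox and Sohlh1 had their highest 2 pools of the series at E18.5. Lhx8, a LIM homeobox factor needed for oocytes to survive and grow (chr3:154306294-154330659, GRCm38), was at 624 and 847 CPM in libraries 6 and 26, at 436 and 82.5 CPM in libraries 24 and 25 and at 71.4 and 143 CPM in libraries 20 and 22. Both E18.5 pools were above all 4 others, and library 24 was nearer to them than to library 25. The log2 fold change was 1.58 ± 0.66 (SE) against E17.5 (edgeR adjusted p = 0.426) and 2.83 ± 0.69 against E16.5 (adjusted p = 0.0559), short of the threshold.

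Nobox, a homeobox factor of the oocyte (chr6:43303674-43309554), was at 442 and 776 CPM at E18.5, at 314 and 30.7 CPM in libraries 24 and 25, and at 24.2 and 81.3 CPM at E16.5. Its pools did not overlap with E17.5, where library 24 again stood above library 25 (log2 fold change 1.91 ± 0.98, adjusted p = 0.516). Sohlh1, a basic helix-loop-helix factor that acts early in this network (chr2:25842995-25847248), was at 676 and 888 CPM at E18.5, at 576 and 64.4 CPM at E17.5, and at 44.6 and 153 CPM at E16.5. Library 24 stood just under library 6 (log2 fold change 1.36 ± 1.15, adjusted p = 0.728).

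Figla, the helix-loop-helix factor that turns on the zona pellucida genes, was at 1089 and 1848 CPM at E18.5 and at 1152 and 578 CPM at E17.5. These pools overlapped, because library 6 was below library 24. Sohlh2, the partner of SOHLH1, was level at 185 and 151 CPM against 177 and 169.7 CPM. Foxo3, which holds primordial follicles dormant, was at 389.8 and 210.0 CPM against 195 and 83.6 CPM, with library 26 only slightly above library 24 (adjusted p = 0.419). Of 17 listed factors 14 were in the table and 9 passed the filter on low counts, with 5 above (13.3% of all genes were) and 1, Lhx2, below both E17.5 pools. Their median log2 fold change was 1.11, against -0.02 over all genes tested, and Tbpl2, one of the 5, had 39 UMIs at E18.5 and 0 at E17.5. Also among the 5 were Lhx8, Nobox and Sohlh1, markers of the label chosen with these data in view. The count is therefore no independent result.

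The promoters of 5 genes whose highest 2 pools of the series were those of E18.5 are shown so that their sequence can be read beside these values: 3 of the transcription factors, and Nlrp5 and Padi6 of the oocyte's products described next. Each is the 250 bases before the RefSeq start (GRCm38.p6), 5' to 3' on the gene's strand, with every CANNTG in capitals. This six-base pattern, the E-box, is the kind of site that factors such as SOHLH1 and FIGLA bind, and it reads the same on both strands.
Sohlh1, chr2:25847249-25847498, minus strand: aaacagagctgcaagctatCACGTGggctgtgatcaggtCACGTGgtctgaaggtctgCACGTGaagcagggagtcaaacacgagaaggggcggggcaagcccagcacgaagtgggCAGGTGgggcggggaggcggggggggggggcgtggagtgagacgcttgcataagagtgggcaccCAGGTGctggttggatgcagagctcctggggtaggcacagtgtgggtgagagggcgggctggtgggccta
Nobox, chr6:43309555-43309804, minus strand: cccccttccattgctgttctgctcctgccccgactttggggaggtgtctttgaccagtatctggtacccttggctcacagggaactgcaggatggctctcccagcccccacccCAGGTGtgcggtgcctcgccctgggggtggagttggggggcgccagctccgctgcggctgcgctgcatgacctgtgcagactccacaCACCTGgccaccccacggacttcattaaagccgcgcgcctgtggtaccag
Lhx8, chr3:154330561-154330810, minus strand: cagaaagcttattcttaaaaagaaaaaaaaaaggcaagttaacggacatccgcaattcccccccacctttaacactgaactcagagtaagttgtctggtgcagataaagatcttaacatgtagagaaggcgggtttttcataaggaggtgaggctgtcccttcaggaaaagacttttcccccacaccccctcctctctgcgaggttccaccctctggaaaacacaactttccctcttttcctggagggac
Nlrp5, chr7:23385639-23385888, plus strand: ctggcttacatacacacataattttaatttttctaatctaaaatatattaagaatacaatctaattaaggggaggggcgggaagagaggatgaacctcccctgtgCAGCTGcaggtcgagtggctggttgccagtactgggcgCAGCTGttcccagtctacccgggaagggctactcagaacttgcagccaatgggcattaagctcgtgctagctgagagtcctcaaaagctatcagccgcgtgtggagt
Padi6, chr4:140742644-140742893, minus strand: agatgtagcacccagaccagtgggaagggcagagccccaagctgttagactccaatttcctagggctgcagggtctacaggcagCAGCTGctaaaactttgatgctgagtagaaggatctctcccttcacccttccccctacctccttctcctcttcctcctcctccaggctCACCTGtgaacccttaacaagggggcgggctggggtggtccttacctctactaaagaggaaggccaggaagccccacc
Sohlh1 had 5 matches, 3 of which were CACGTG, starting at -231, -211, -192, -134, -70 bases from the start site. Nobox, Nlrp5 and Padi6 had 2 each, and Lhx8 had 0. Of 32851 RefSeq promoters 66.2% had at least 1 match in the same 250 bases, so its presence is common. The homeobox patterns TAATTG (7.17% of promoters), TAATTA (4.84%) and TGATTG (12.7%), were searched on both strands, and 1 match was found, a TAATTA at -189 in Nlrp5. Where RefSeq had several starts, as for Nlrp5 with 2, the one nearest the annotated gene start was taken. In Lhx8 the RefSeq start lay 99 bases inside the annotated gene. A RefSeq entry was found for 251 of the 301 genes described, and a match is a description of letters, not of binding.

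**Figure D1:**
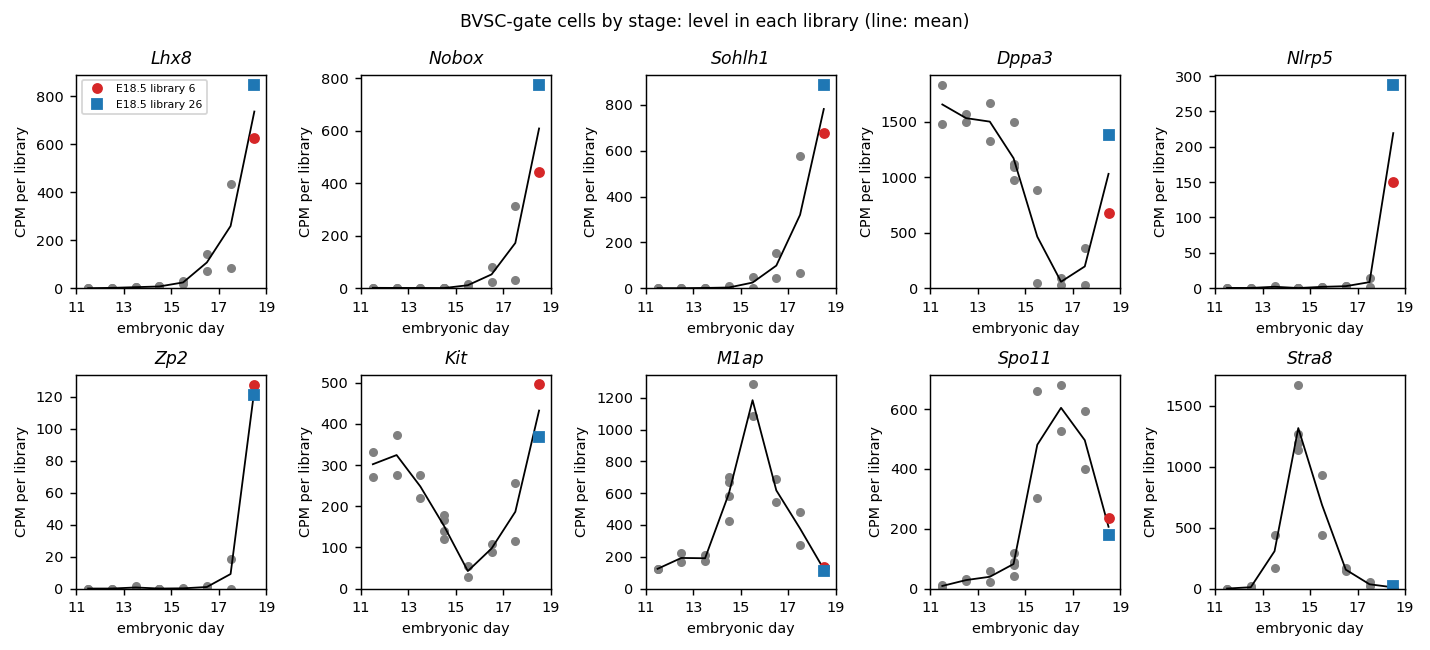
CPM (linear axis from 0) against embryonic day for 10 genes, 1 point per library of reporter-positive cells, with E18.5 libraries 6 and 26 in colour and a line through the stage means. Lhx8 and Nobox reach their highest pools at E18.5, Dppa3 is high at E11.5 to E13.5, low at E16.5 and higher again at E18.5, and M1ap and Spo11 are lower at E18.5 than at E16.5.

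Across the 8 stages, these genes followed different courses. Lhx8 was at 7.39 ± 3.97 CPM (SD, n = 4) at E14.5, 24.1 ± 9.62 CPM (n = 2) at E15.5 and 736 ± 158 CPM (n = 2) at E18.5, and its mean was higher at each stage than at the one before. Nlrp5 had stage means of at most 2.91 CPM from E11.5 to E16.5, was at 8.61 ± 9.07 CPM at E17.5 and reached 219 ± 96.8 CPM at E18.5. Dppa3 had its highest mean at E11.5, 1655 ± 253 CPM, and its lowest at E16.5, 58.6 ± 47.6 CPM, before 1029.9 ± 499 CPM at E18.5. The plot of levels by embryonic day shows every library behind these means.

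Genes for the oocyte's own products are described next. Nlrp5, also called Mater, encodes a protein of the subcortical maternal complex that the embryo needs for its first divisions (chr7:23385889-23441922). It was at 151 and 288 CPM at E18.5, 15 and 2.19 CPM at E17.5 and 3.00 and 2.82 CPM at E16.5. Both E18.5 pools were above the other 4, of which library 24 was the highest. Nlrp5 rose against E16.5 by 6.33 ± 1.198 on the log2 scale (edgeR adjusted p = 0.0131). The adjusted p was 0.171 without library 20, 0.0664 without library 22 and 0.0992 without library 26. Against E17.5 the difference was 4.76 ± 1.10 (adjusted p = 0.119).

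Other members of that list were also described. Nlrp4c, of the same NLR gene family, was at 25.5 and 22.2 CPM at E18.5 against 1.88 and 0.365 CPM at E17.5. Padi6, a peptidylarginine deiminase of egg cytoplasmic lattices, was at 18.6 and 72.6 CPM against 1.5 and 0 CPM. Tle6, another part of the subcortical complex, was already expressed at E16.5 (97.4 and 106 CPM) and stood at 253 and 432 CPM at E18.5. Its library 24 value of 245 CPM was close to that of library 6. Of 16 listed genes 12 were in the table and 7 were tested. Of the 7, 5 were above both E17.5 pools (13.3% of all genes were), with a median log2 fold change of 1.74. Of the 7, 1, Nlrp5, rose against E16.5. Nlrp5 was also among the 5 and is a marker of the label, chosen with these data in view. The count is therefore no independent result.

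Zp2, for a zona pellucida glycoprotein to which sperm bind (chr7:120126772-120145291), was at 127 and 121 CPM at E18.5. It was at 18.2 and 0 CPM in the E17.5 libraries and 1.75 and 0.166 CPM in those of E16.5. The E18.5 libraries were close together and above all others (log2 fold change 3.81 ± 1.70 against E17.5, adjusted p = 0.46). Zp3 was lower, at 17.2 and 5.55 CPM, and its library 26 was below library 24 (6.01 CPM). Uchl1, a deubiquitinating enzyme abundant in oocytes, was at 1125 and 1363 CPM against 813 and 171 CPM, and its exons overlap those of Uchl1os on the other strand. Bmp15, a growth factor secreted by growing oocytes, had 5 UMIs at E18.5 (0.385 and 0.427 CPM), below the 4.62 CPM of library 20 at E16.5. All 5 measured genes of the 12 in the list were tested, and 4 were above both E17.5 pools (13.3% of all genes were).

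Oas1e, a gene of the 2'-5'-oligoadenylate synthetase family (chr5:120786226-120795530), had 424 UMIs at E18.5, 2 at E17.5 and 0 at E16.5. It was at 24.2 and 73.4 CPM at E18.5. Its level was at least 156-fold higher than at E16.5, reckoned against 3 counts over the stage (edgeR adjusted p = 0.0465, DESeq2 adjusted p = 0.323). With no UMI from E11.5 to E16.5, it passed the filter on low counts only through its E18.5 pools. The call is therefore no independent support for the rise. The call was lost in 8 of 13 alternatives, with an adjusted p of 0.309 without library 20, 0.134 without library 22 and 0.206 without library 26. Reads could be split with its close relatives, of which Oas1c and Oas1d had at most 2.13 CPM at E18.5. Cpeb1, which controls the translation of stored mRNA, was at 694 and 636 CPM against 541 and 307.1 CPM at E17.5, with no overlap. Patl2, a translational repressor of oocytes, was lower at 11.8 and 7.68 CPM against 22.4 and 19.8 CPM. Of 7 tested genes for the storage and translation of maternal RNA, 3 were above and 1 below both E17.5 pools (13.3% and 21.4% of all genes were).

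Kit, the receptor through which pregranulosa cells signal to oocytes (chr5:75574916-75656722), was at 496 and 369 CPM at E18.5, 257 and 116 CPM at E17.5 and 87.6 and 107 CPM at E16.5. Both E18.5 pools were above those 4. Kit rose since E16.5, with a log2 fold change of 2.17 ± 0.36 and an edgeR adjusted p of 0.0102. The call was lost without library 20 (adjusted p = 0.138) and when only the E16.5 and E18.5 pools were fitted (adjusted p = 0.0932). Against E17.5 the log2 fold change was 1.24 ± 0.35 (adjusted p = 0.201). Somatic cells of library 6 were at 274 CPM of Kit and those of library 26 at 51.8 CPM. The ligand gene Kitl, which somatic cells express, was at 12.499 and 5.55 CPM in the oocytes and 613 and 723 CPM in the somatic cells.

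Gja4, the connexin of gap junctions between oocyte and granulosa cells, was at 95.7 and 171 CPM at E18.5 against 43.6 and 2.31 CPM at E17.5. Dppa3, which protects the maternal genome from demethylation after fertilization (chr6:122626410-122630272), was at 677 and 1383 CPM against 367 and 26 CPM (log2 fold change 2.49 ± 0.97, adjusted p = 0.395). Its pools did not overlap, but cells had been sorted on a Stella reporter, and Stella is the product of Dppa3. Somatic cells of library 26 held 488 CPM of it, above every pool of E16.5 and E17.5.

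**Figure D2:**
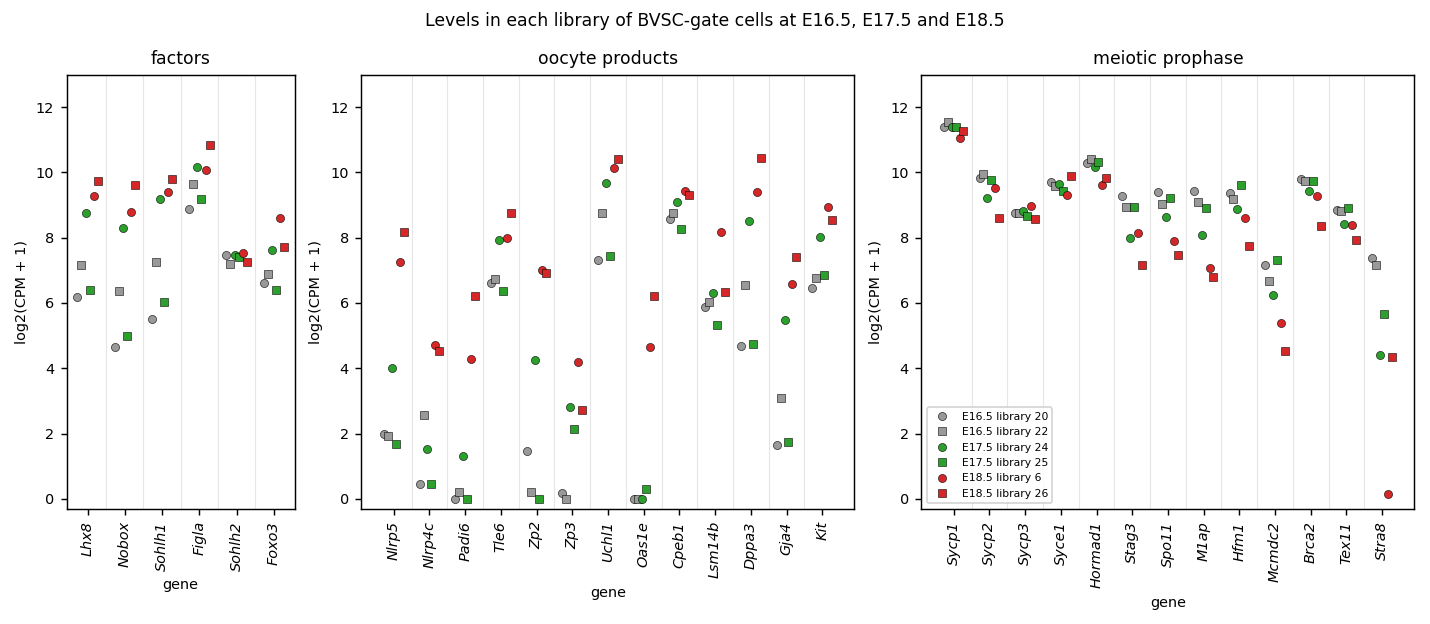
Level as log2(CPM + 1) of oocyte factors, oocyte products and meiotic prophase genes, 1 point per library of E16.5 (grey), E17.5 (green) and E18.5 (red). The E18.5 libraries lie highest for Nlrp5, Zp2 and Kit and lowest for M1ap and Spo11.

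Genes of meiotic recombination were lower at E18.5. M1ap, meiosis 1 associated protein, a gene of the recombination list (chr6:82946902-83030309), was at 133 and 111 CPM at E18.5, 272 and 483 CPM at E17.5 and 688 and 547 CPM at E16.5. The E18.5 pools were close together and below the other 4. M1ap fell by 2.31 ± 0.31 on the log2 scale since E16.5 (edgeR adjusted p = 0.00254), and the call was kept without each of libraries 6, 20, 22 and 26. It was lost when only the E16.5 and E18.5 pools were fitted (adjusted p = 0.085). Against E17.5, M1ap was among the 7 genes with the lowest adjusted p of that comparison, 0.0757 (log2 fold change -1.60 ± 0.30).

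Spo11, which cuts DNA to start recombination, was at 235 and 178 CPM at E18.5 against 399 and 593 CPM at E17.5 and 681 and 528 CPM at E16.5. Hfm1, a helicase for crossovers, was at 391 and 215 CPM against 473 and 787 CPM at E17.5. Mcmdc2, of the MCM family and needed for meiotic repair, was at 40.7 and 22.2 CPM against 74.5 and 157 CPM. In all 3 the E18.5 pools were below the 4 of E16.5 and E17.5, and none passed the test (adjusted p = 0.331, 0.413 and 0.135 against E17.5). Brca2, which loads recombinases on DNA, was lowest in library 26, at 329 CPM, and at 626 CPM in library 6. Of 28 listed genes 9 were measured and tested; 7 were below both E17.5 pools (21.4% of all genes were) and 0 above, with a median log2 fold change of -0.72.

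Structural genes of the synaptonemal complex were still expressed. Sycp1, for its transverse filaments, was still at 2147 and 2457 CPM at E18.5 against 2659.9 and 2666 CPM at E17.5 (log2 fold change -0.15 ± 0.25). Sycp3, for its lateral elements, was at 496 and 383 CPM against 447 and 407 CPM, and the stages overlapped. Hormad1, which marks axes that have not yet synapsed, was at 783 and 910.0 CPM, below both E17.5 pools (1149.9 and 1267 CPM). Stag3, a meiotic cohesin subunit, was at 282 and 142 CPM, and library 6 was above library 24 (256 CPM). Of 8 tested members 2 were below both E17.5 pools (21.4% of all genes were) and 0 above (median -0.27). With the strand setting of the counting not given, the counts of these other named genes are also uncertain because their exons overlap another gene: 1700095J03Rik, 2310001H17Rik, Brca2, C920021L13Rik, Col4a3, Elf3, Mcmdc2, Oas1c, Phyhipl, Sycp3 and Ucp2.

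Stra8, the gatekeeper of meiotic entry, peaked at E14.5 with 1315 ± 241 CPM (SD, n = 4) and was at 0.0961 and 19.2 CPM at E18.5. Cyclin B3, encoded by Ccnb3 and used at the exit from meiosis I, was at 639 and 417 CPM, below both E17.5 pools (865 and 1102 CPM). Mos, the kinase that arrests the mature egg, was at 16.54 and 14.51 CPM against 2.38 and 0 CPM. Among 9 tested genes of meiotic arrest and resumption, 3 were above and 1 below both E17.5 pools. Of 4 tested genes of meiotic initiation 3 were below and 0 above. Over all genes 13.3% were above and 21.4% below.

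Markers of other cells summed lower in the oocytes than in the somatic cells of the same library, least so the erythroid ones of library 26, and several lists in which the oocytes stood lower were high in somatic cells. The 8 measured pregranulosa markers summed to 42.7 and 31.6 CPM at E18.5, 137 and 67.4 CPM at E17.5, and 2411 and 2504 CPM in the E18.5 somatic cells. Of these 4 were below both E17.5 pools (21.4% of all genes were), and none was at 0 over the E18.5 pools. The cells had been chosen for a low somatic transcript. The 8 measured macrophage markers summed to 40.1 and 87.5 CPM at E18.5 and 61.6 and 12.8 CPM at E17.5, and the 9 stroma markers to 82.8 and 87.5 CPM and 75.9 and 109 CPM. The 2 measured surface epithelium markers summed to 17.499 and 5.12 CPM at E18.5, against 1007 and 265 CPM in somatic cells. The 6 endothelial markers summed to 26.9 and 10.7 CPM and the 5 erythroid ones to 39.7 and 1096 CPM, the latter mostly Hbb-bh1. The erythroid sums of the somatic cells were 982 and 1151 CPM, so in library 26 the oocytes were near the somatic level.

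Among 22 measured imprinted genes, 0 were above and 7 below both E17.5 pools (21.4% of all genes were below), with a median log2 fold change of -0.52. Against E16.5, 2 were above and 12 below (22.6% of all genes were below), and 1, Kcnq1ot1, fell. This antisense RNA that silences a domain of imprinted genes was at 51.1 and 11.52 CPM at E18.5, 89.3 and 89.2 CPM at E17.5 and 167 and 125 CPM at E16.5 (log2 fold change -2.22 ± 0.46, edgeR adjusted p = 0.0245). Leaving out library 20 gave an adjusted p of 0.154, and leaving out library 26 gave 0.101. It overlaps Kcnq1 on the other strand, and somatic cells held 509 and 604 CPM. The summed level of the imprinted genes was 736 and 707 CPM in the oocytes and 5578 and 6702 CPM in the somatic cells, and the part of somatic transcripts in this difference was not tested.

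Immediate early genes, which respond quickly to stimuli such as dissociation, were also far higher in somatic cells. Jun, whose exons overlap Junos on the other strand, was at 25.9 and 54.2 CPM in the oocytes, 121 and 77.4 CPM at E17.5 and 1462 and 2066 CPM in E18.5 somatic cells. Of 6 tested genes 3 were below both E17.5 pools (21.4% of all genes were) and 0 above. Fzd7, a Wnt receptor in the list of adhesion and cyst breakdown, fell by 3.55 ± 0.67 on the log2 scale since E16.5 (edgeR adjusted p = 0.0127), to 4.33 and 0.427 CPM from 43 and 22.6 CPM. Leaving out library 20 gave an adjusted p of 0.116, and leaving out library 26 gave 0.0731. In that list 1 of 7 tested genes was above and 2 below both E17.5 pools (13.3% and 21.4% of all genes were).

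Genes were also named by size, as the largest differences among genes of at least 20 CPM with no overlap between stages. None of the 16 found against E17.5 passed the test. Th, the rate-limiting enzyme of catecholamine synthesis, was at 42.9 and 87.5 CPM at E18.5 and at 0.125 and 0.122 CPM at E17.5, a ratio of 414 (exact 95% Poisson interval 114 to 3426, counting error only; adjusted p = 0.121). Ninj2, an adhesion protein gene, was at 20.3 and 101 CPM against 0 and 0.122 CPM, with 1 UMI in all E17.5 cells. Ehf, a transcription factor of the ETS family, was at 25.2 and 27.3 CPM against 0.125 and 0 CPM, also with 1 UMI at E17.5. Oas1e, Bglap2, Cd160, Ucma and Them7 completed the higher 8, and the exons of Cd160 overlap those of Pdzk1 on the other strand.

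On the lower side, Col4a3, a collagen IV chain, was at 8.46 and 0.854 CPM at E18.5 against 34.4 and 88.3 CPM at E17.5. Phyhipl was at 8.75 and 2.56 CPM against 23.7 and 73.4 CPM. Another 5 were the noncoding genes 2310001H17Rik, C920021L13Rik, 1700095J03Rik, D730003I15Rik and Gm14019. These 7 were lower in library 26 than in library 6 except 2310001H17Rik, at 0.0961 and 0.854 CPM.

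Against E16.5 the same rule, carried over to this comparison after its values were seen, named 12 genes that rose and 12 that fell. Besides Nlrp5 and Oas1e the rises were Elf3, Tesc, Phactr3, AU015836, Fam13c, Mvp, Htra1, Wwtr1, Ppfibp2 and Cd164l2. Phactr3, a regulator of protein phosphatase 1 and actin, was at 181 and 141 CPM at E18.5, 88.5 and 11.6 CPM at E17.5 and 1.75 and 9.29 CPM at E16.5 (log2 fold change 4.88 ± 0.91, adjusted p = 0.0127). Tesc, a calcium-binding protein gene, was at 94.7 and 131 CPM at E18.5 and 4.999 and 1.66 CPM at E16.5 (5.16 ± 0.89, adjusted p = 0.0107). Elf3, another ETS factor, was at 26.1 and 44 CPM and 1.25 and 0.332 CPM (adjusted p = 0.00884), with somatic cells of library 26 at 46.1 CPM.

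Wwtr1, the Hippo pathway effector TAZ, was at 137 and 319 CPM in the oocytes at E18.5 and 23 and 22.1 CPM at E16.5 (log2 fold change 3.45, adjusted p = 0.0227). The call was lost when only the E16.5 and E18.5 pools were fitted (adjusted p = 0.0932) and when all reporter-positive cells were kept, where the log2 fold change was 2.31 and the adjusted p 0.1. Htra1 and Fam13c also lost it with all reporter-positive cells kept. Somatic cells held 376 and 193 CPM. Ppfibp2 was at 177 and 183 CPM in the oocytes and 299 and 334 CPM in somatic cells, and Htra1, a secreted protease, at 70.4 and 67 CPM and 302 and 166 CPM. The exons of Fam13c, Cd164l2 and Ppfibp2 overlap genes of the other strand, and those of Mvp a gene of the same strand, so their counts are uncertain.

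The 12 that fell were Tnni3, D730003I15Rik, Fzd7, Phyhipl, Ucp2, Myl9, Ifitm1, Ints6l, Sesn1, M1ap, Cited1 and Kcnq1ot1. Cited1, a transcriptional co-activator gene, was at 134 and 63.2 CPM at E18.5, 273 and 484 CPM at E17.5 and 552 and 418 CPM at E16.5 (log2 fold change -2.29 ± 0.40, adjusted p = 0.0107). Sesn1, a stress-induced inhibitor of mTOR signalling, was at 23.7 and 7.68 CPM against 107 and 57.9 CPM (adjusted p = 0.0432). Myl9, Ifitm1 and Ucp2 were far higher in somatic cells: Ifitm1 was at 27.8 and 37.6 CPM in the oocytes, 266 and 138 CPM at E16.5 and 1112 and 868 CPM in E18.5 somatic cells. Without library 20 all 12 named rises and 10 of the 12 falls lost their call, without library 22 8 rises and 1 fall did, without library 26 7 rises and 9 falls, and without library 6 0 rises and 2 falls. Of the 24 only M1ap and Tnni3 kept it without each of libraries 6, 20, 22 and 26. When only the E16.5 and E18.5 pools were fitted, all 12 falls lost it, Tnni3 with an adjusted p of 0.169, and so did 11 of the 12 rises, all but Nlrp5. The exons of Tnni3 overlap those of Dnaaf3.

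Within the stage the oocytes were not alike. The share of cells with a molecule depended on the depth at which it was read. Among cells thinned to 50000 UMIs, Lhx8, Nobox and Sohlh1 were found in 100% of 57 oocytes of library 6 (exact 95% binomial interval from 93.7%; 13 shallower cells left out) and 22 of library 26 (3 left out). They were found in 85.7% (Nobox) to 100% of 7 thinned somatic cells of library 6 and in 100% of 9 of library 26. At 25000 UMIs, Nobox was found in 95.6% of 68 oocytes of library 6 and 53.8% of 13 somatic cells, and Lhx8 in 95.6% and 69.2%. In library 26 both genes were found at that depth in 100% of 23 oocytes and of 13 somatic cells. In the E17.5 library 25, Nobox was found at 50000 UMIs in 29.3% of 58 oocytes (interval 18.1% to 42.7%; 11 left out) and in 3 of 10 somatic cells, and at 25000 UMIs in 19 of 66 oocytes (28.8%) and 0 of 14 somatic cells, which allows a share of up to 23.2%. Lhx8 was found there at 50000 UMIs in 55.2% of oocytes and 2 of 10 somatic cells. Without thinning the shares of Nobox in library 25 were 49.3% and 19%, and all 95 E18.5 oocytes had a molecule of each of the 3 genes. Since most somatic cells of the E18.5 libraries also had a molecule, cells were counted against the highest somatic cell of their library, a measure chosen after the data were seen (19, 21, 18 and 15 somatic cells in libraries 24, 25, 6 and 26).

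The limit of that measure came from each library's own somatic cells, whose levels differed, so counts are not on one scale between libraries or stages. At 50000 UMIs the somatic cells held a mean of 2.69, 0.3, 2.57 and 3.78 UMIs of Lhx8 in libraries 24, 25, 6 and 26. Lhx8 was above background in 62 of 70 oocytes of library 6 and 20 of 25 of library 26, and in 27 of 68 and 27 of 69 at E17.5. For Nobox the numbers were 52 and 20 at E18.5 and 26 and 10 at E17.5, and for Sohlh1 they were 48 and 16, and 26 and 3. Nlrp5 was above background in fewer cells, 24 and 10 at E18.5, where the limits were 39.3 and 118 CPM. At E17.5 it was above background in 18 and 1 cells, in pools at 15 and 2.19 CPM against 151 and 288 CPM at E18.5. The stages are therefore not compared by these counts of Nlrp5. At E18.5 Oas1e was seen above background in 15 and 12 cells and Zp2 in 24 and 6. By contrast, Hormad1, Mael and Sycp1 were above every somatic cell in all 95 oocytes.

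**Figure D3:**
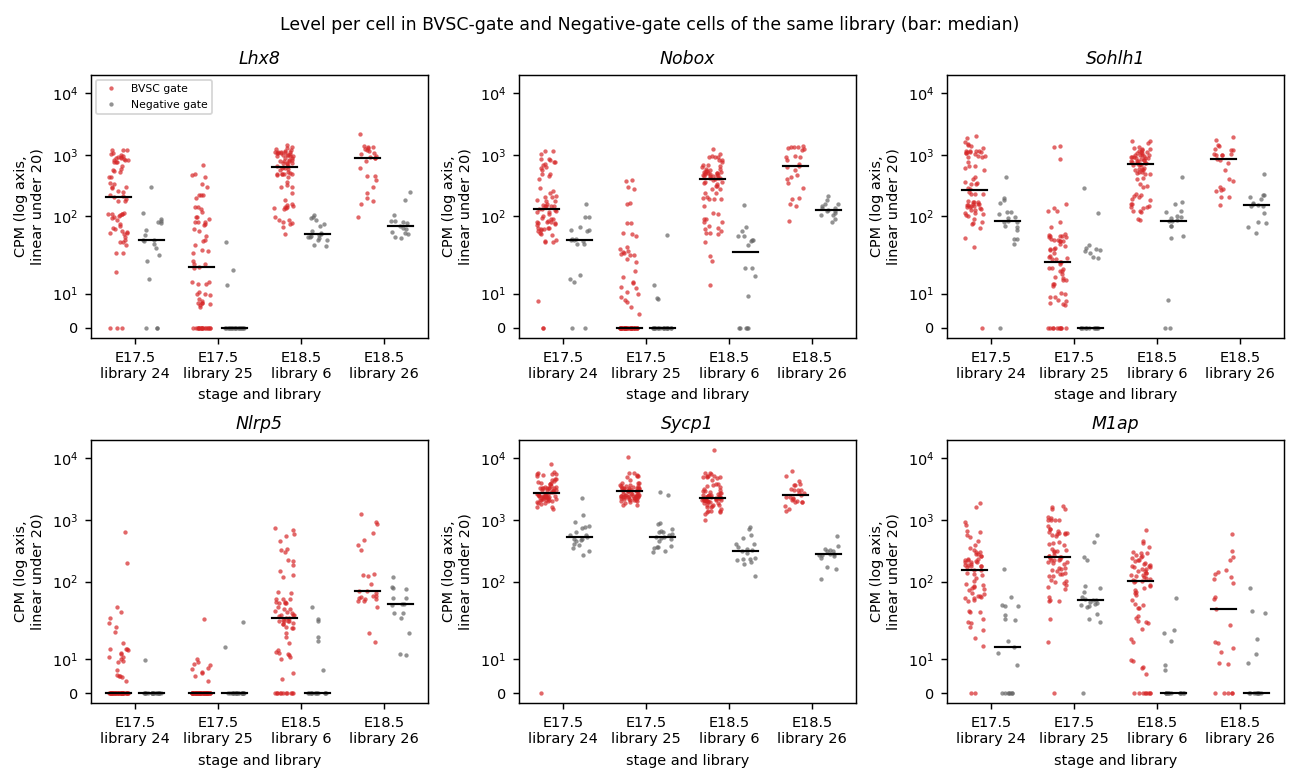
CPM per cell (log axis, linear under 20) of 6 genes in reporter-positive cells (red) and somatic cells (grey) of the E17.5 and E18.5 libraries, with a bar at each median. At E18.5, Sycp1 lies above the somatic cells in all oocytes and Lhx8 in 62 of 70 and 20 of 25, while Nlrp5 lies above them in 24 of 70 cells of library 6 and 10 of 25 of library 26.

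All 3 of Lhx8, Nobox and Sohlh1 exceeded the highest somatic cell in 44 of 70 oocytes of library 6 and 15 of 25 of library 26, and in 18 of 68 and 3 of 69 at E17.5. None did in 8 and 3 oocytes of E18.5, and in 32 and 39 at E17.5. Since the limits differed between libraries, these counts are also not on one scale between the stages. The E18.5 cells with none were germ cells by their prophase transcripts, with median Sycp1 of 2674 and 3682 CPM, against 2194 and 2194 CPM where all 3 exceeded it. Median Hormad1 was 1343 and 1113 CPM with none and 616 and 741 CPM with all 3. Median Kit was 107 and 149 CPM with none and 597 and 394 CPM with all 3. Their median depth was 145239 and 67076 UMIs with none, and 156233 and 108478 with all 3.

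The levels of these factors varied together over cells. Spearman's rho between Lhx8 and Nobox was 0.674 over 70 oocytes of library 6 and 0.611 over 25 of library 26, and between Lhx8 and Sohlh1 it was 0.743 and 0.565. Nobox and Dppa3 had 0.588 and 0.726. Nobox and the prophase gene Hormad1 went against each other, at -0.468 and -0.422. In the E17.5 libraries 24 and 25, Lhx8 and Nobox had 0.681 and 0.306, and Lhx8 and Sohlh1 0.796 and 0.247. There Nobox had 0.652 and 0.0148 with Dppa3 and -0.331 and -0.302 with Hormad1. Library 25 held 252 UMIs of Nobox. Cells of a library share its chemistry and differ in depth, so these values describe these libraries.

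Summed levels of the gene groups were also set side by side. The 31 oocyte genes were the measured members of the lists of oocyte factors, zona and secreted factors, and subcortical complex. They included Uchl1, listed with the zona genes, which had a mean over cells of 1195 CPM in library 6 and 1393 CPM in library 26. They also included the label's markers Lhx8, Nobox, Sohlh1 and Nlrp5, so a higher sum at E18.5 is no independent result. The median sum was 5722 CPM in library 6 (range 1015 to 8579) and 7463 CPM in library 26 (2054 to 12078). At E17.5 the medians were 3043 CPM in library 24 and 999.7 CPM in library 25, and the ranges overlapped with those of E18.5. The 17 genes of synaptonemal complex, cohesin and recombination had medians of 8252 and 7129.5 CPM at E18.5 and 9194 and 10513 CPM at E17.5. Spearman's rho between the sums was -0.219 in library 6 and -0.592 in library 26, and -0.435 and -0.105 in the E17.5 libraries 24 and 25. At E18.5 the prophase sum also went against depth (rho -0.641 and -0.479), as it did at E17.5 (-0.439 and -0.361). The part of depth in the relation was not tested.

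**Figure D4:**
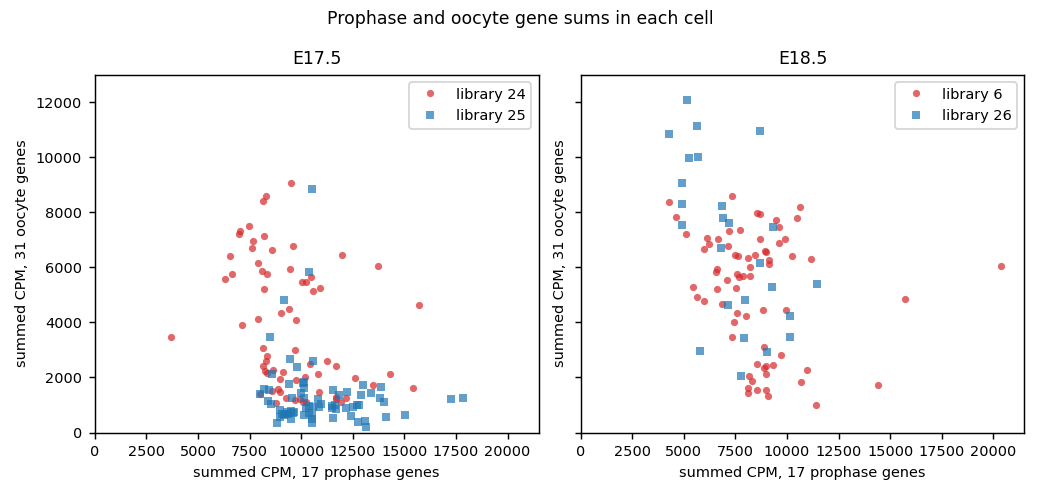
Summed CPM of 31 oocyte genes (vertical axis) against that of 17 prophase genes (horizontal axis), 1 point per cell, for the libraries of E17.5 and E18.5. The E18.5 cells centre on 5722 and 7463 CPM of oocyte genes, above the E17.5 medians of 3043 and 999.7 CPM. The 31 genes include Uchl1 and the label's markers Lhx8, Nobox, Sohlh1 and Nlrp5, so this difference is no independent result.

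Oocytes with Nlrp5 above the highest somatic cell of their library (over 39.3 CPM in library 6 and 118 CPM in library 26) were set beside the rest as a description. They were 24 of 70 and 10 of 25 cells, and 30 and 8 cells lay within 2-fold of the limit. Phactr3 had a median of 261 CPM in those with Nlrp5 above it and 31 CPM in the rest of library 6, and 149 and 27.7 CPM in library 26. Gja4 had 145 and 5.35 CPM, and 191 and 26.3 CPM. Foxo3 had 459.5 and 244 CPM, and 225 and 102 CPM. For each of the 3, both libraries had the higher median in the cells with high Nlrp5. The somatic genes Kitl and Wt1, at low levels, differed the same way: Kitl had 12.9 and 7.55 CPM in library 6 and 2.95 and 0 CPM in library 26, and Wt1 15.6 and 9.47 CPM, and 10.7 and 9.54 CPM. Their part in the difference was not tested.

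Dppa3 differed in the same direction, with medians of 836 and 271 CPM in library 6 and 2023 and 775 CPM in library 26. Hormad1 and Ccnb3 went the other way, M1ap and Spo11 differed in direction between the libraries, and Stag3 was higher with high Nlrp5 in both. Hormad1 had 555 CPM in cells with high Nlrp5 and 895 CPM in the rest of library 6, and 678 and 996 CPM in library 26. Ccnb3 had 470.5 and 808 CPM, and 107 and 655 CPM. Figla had nearly equal medians, at 1173 and 1155 CPM, and 1896 and 1938 CPM. The median depth of the cells with high Nlrp5 was 174894 UMIs against 129098 in library 6, and 92508 against 104802 in library 26.

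**Figure D5:**
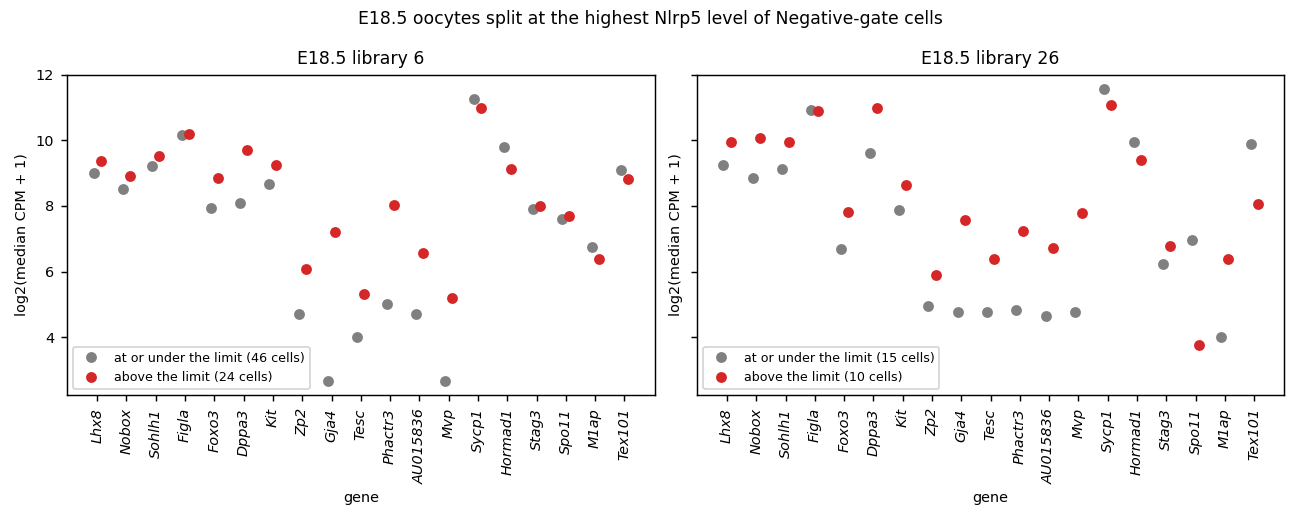
Level as log2(median CPM + 1) of oocyte and prophase genes in E18.5 oocytes with Nlrp5 above and at or below the highest somatic cell of their library, for libraries 6 and 26. Phactr3, Gja4 and Dppa3 are higher in the cells with high Nlrp5 and Hormad1 is lower, in both libraries.

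Among 2959 genes of at least 50 CPM in each E18.5 library, variation over cells in excess of counting noise had a median squared coefficient of 0.49. The 15 most variable genes, ranked by the lower value of the libraries, were Tmem80, Olfr679, 0610040B10Rik, Ttn, Bhlhe41, Cars2, Zfp668, Aknaos, Zfp74, Rbm19, Idua, Cep135, Pdlim5, Arl14ep and Yod1. Tmem80, a transmembrane protein gene, had 3.9, and Bhlhe41, a transcriptional repressor of the circadian clock, had 3.17. Ttn, the giant muscle protein titin, had 3.36. None of them belongs to the gene lists used here. Of the oocyte genes, Zp2 was 27th with 2.42, Gja4 77th with 1.9 and Nlrp5 84th with 1.85, whereas Lhx8 had 0.362 and Mael only 0.0764. The ranking depended on the total used for scaling: 3 of the 15 were shared when CPM were taken from the deposited UMI totals, when 2001 genes reached the minimum.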

How the data were processed

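Single cells of fetal mouse ovaries were profiled by a modified STRT-seq protocol, and the authors deposited raw UMI counts of every gene in each cell. The submitters' processing notes name CASAVA 1.8, UMI-tools, STAR, featureCounts and Subread with build mm10; which step each served, the strand setting and any filter on cells are not given there. The count table read here held 16344 complete genes on chromosomes 1 to 7, 10, X and the start of 8 (median 51.4% of a cell's deposited UMIs at E18.5); other genes were not analysed here. Genes were placed with GENCODE annotation of GRCm38.

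Stage, library and gate came from the cell names. Reporter-positive cells under 100 CPM of Anxa5 (1231 cells, 18 pools of at least 5 cells, E11.5 to E18.5) were summed per library and stage. edgeR 4.0.16 (R 4.3.3; TMM, filterByExpr, quasi-likelihood test, Benjamini-Hochberg at 0.05) fitted a mean per stage; the SE is the log2 fold change over the root of F. Alternatives were DESeq2 1.42.0, other scalings, filters, pools and left-out libraries. The test was tried on simulated counts first. Doublets were not called. The members and gene lists were chosen with earlier results of these data known. Named genes were the measured list members and, against E17.5, the 8 (12 if called) largest differences in each direction with no overlap and at least 20 CPM; 1 of them is not reported here. Intervals cover counting error only.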

Additional observations from a re-analysis of the deposited data

How the results depend on the processing

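No paired analysis was possible because the groups are stages and no library number recurs at another stage of the comparison. Against E17.5 the 0 calls became 8 with upper-quartile scaling, 161 with DESeq2, 184 without the filter on low counts, 4 with only the pools of the stages compared and 1 with all reporter-positive cells kept. They ranged from 0 to 102 when 1 library was left out. A limit of 50 CPM of Anxa5, pools of at least 10 cells, pools by deposited replicate and the title prefix as covariate each gave 0. Against E16.5 the 76 calls became 480 with DESeq2, 428 without the filter, 2 with only the pools of the stages compared, 126 with all reporter-positive cells kept and 44 with pools by deposited replicate, and ranged from 5 to 392 when 1 library was left out. They were 83 with upper-quartile scaling, 55 with the limit of 50 CPM and 88 with the covariate. Of the 76 genes 75 were also called by DESeq2. No named gene whose fold change was recomputed under these settings changed direction. The share of library 25 cells with a Nobox UMI was 29.3% at 50000 UMIs and 49.3% unthinned. Of the 15 most variable genes 3 were shared when CPM were scaled to the deposited totals, and the mean Lhx8 level at E18.5 was then 378 and not 735.6 CPM, because CPM here refer to the genes read. The cause of the other differences was not tested. Depth limits the low genes most: Oas1e rests on 424 UMIs and Tbpl2 on 39.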

Other observations

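Cell cycle genes stayed expressed in the oocytes, which had left the mitotic cycle for meiotic prophase. Of 18 tested genes of mitosis and S phase, 6 were above and 2 below both E17.5 pools (13.3% and 21.4% of all genes were), and the median log2 fold change was 0.23. Mcm2, of the replicative helicase, was at 136 and 142 CPM at E18.5 against 96.1 and 52.8 CPM at E17.5 and 58.6 and 46.6 CPM at E16.5. Tyms, which makes thymidylate, was at 129.6 and 129 CPM against 85.6 and 23 CPM at E17.5. Bub1, a spindle checkpoint kinase, was at 352 and 216 CPM, below both E17.5 pools (399.6 and 582 CPM). None passed the test.

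Glycolysis genes were at a lower summed level in the oocytes than in somatic cells, with no test made. The 13 measured glycolysis genes summed to 1302 and 1868 CPM in E18.5 oocytes and 10834 and 9857 CPM in somatic cells of the same libraries. Ldhb, the lactate dehydrogenase subunit of oocytes, was at 234 and 503 CPM at E18.5 against 143 and 58.3 CPM at E17.5 (log2 fold change 1.97 ± 0.58, edgeR adjusted p = 0.227). The 17 genes of oxidative phosphorylation summed to 13615 and 20561 CPM in the oocytes and 16170.4 and 17385 CPM in somatic cells, and these values overlapped. They had 2 of 17 tested members above and 0 below both E17.5 pools (median log2 fold change 0.10), and the glycolysis genes had 3 of 13 tested members above and 0 below both E17.5 pools (median log2 fold change -0.04).

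No member of the other lists passed the test against E17.5, and their counts are read against the 13.3% of all tested genes above and 21.4% below both E17.5 pools. Apoptosis and checkpoint genes had 2 of 13 tested members above and 0 below both E17.5 pools (median log2 fold change 0.36). The list of Kit, PI3K and dormancy had 2 of 9 tested members above and 2 below both E17.5 pools (median log2 fold change 0.15), with Kit and Foxo3 as the higher pair. Genes of the piRNA pathway had 1 of 12 tested members above and 2 below both E17.5 pools (median log2 fold change 0.18), with Exd1 higher at 100.4 and 111 CPM against 64.8 and 43.3 CPM. DNA methylation and histone modifiers had 1 of 13 tested members above and 2 below both E17.5 pools (median log2 fold change 0.03), pluripotency genes 0 of 11 tested members above and 2 below both E17.5 pools (median log2 fold change -0.15), axoneme genes 2 of 12 tested members above and 1 below both E17.5 pools (median log2 fold change -0.09), and X-linked genes of inactivation and escape 1 of 8 tested members above and 1 below both E17.5 pools (median log2 fold change 0.11). Ddx3x, an X-linked RNA helicase gene, was at 610.2 and 339 CPM against 254 and 213 CPM at E17.5.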
